A study of Mus musculus with 15 samples.

Results

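Osteoclasts send signals to the osteoblasts that refill the bone they resorb, and the genes described here encode 10 such coupling factors or the enzyme that makes one: Lif, Sphk1, Spp1, Sema4d, Efnb2, Cthrc1, Slit3, Pdgfb, Wnt10b and Bmp2. They were taken by symbol, 10 of the 41819 genes in the table of the pterosin B experiment and 8 of the 2275 in the knockout table, where Slit3 and Wnt10b are not listed. RNA was sequenced from 15 cultures of mouse bone marrow monocytes, the precursors that fuse into osteoclasts under RANKL, in 5 groups of 3 libraries, all with the strain label C57BL/6J. The series' design text speaks of embryonic livers instead, against the tissue label of every sample, and the sample labels were followed. In the pterosin B experiment, SC cells received vehicle, SCR cells received RANKL (50 ng/ml) for 3 days, and SCRP cells received the same RANKL with pterosin B (300 µM), a bracken fern compound used to inhibit signalling through the kinase SIK3. All 3 groups had M-CSF (50 ng/ml), alone for the first 2 days, and the time at which SC was harvested is not given in the sources used here. In the knockout experiment, wild-type controls (WT) were set against cells whose floxed Sik3 alleles were deleted by Cre driven from the Rank locus (KO, Rank_Cre/+; Sik3_flox/flox). Both had M-CSF for 2 days and then RANKL with M-CSF for 2 days. The protocol names both C57BL/6J and Rank_Cre/+ mice beside the floxed line, and which of them gave the WT libraries is not stated, so the Cre allele may be carried by KO cells alone.

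Coupling keeps bone formation near resorption, and its factors reach osteoblasts and their precursors by several routes. LIF, PDGF-BB, WNT10B, BMP2, SLIT3 and CTHRC1 are secreted proteins, and osteopontin (Spp1) is secreted into the matrix. SPHK1 is an enzyme inside the cell that makes sphingosine 1-phosphate, a lipid which is then exported, while ephrin-B2 and semaphorin 4D sit in the membrane, the latter also shed, so "secreted" holds for these 3 only in a loose sense. Semaphorin 4D restrains bone formation, whereas most of the others are known to favour it. The protocols name no osteoblasts in these cultures, so the data concern the transcripts of the sending cell.

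Reads in exons totalled 37138648 to 49927591 per library in the pterosin B experiment, and the library totals implied by RPKM were 21267111 to 25932103 in the knockout experiment. Sik3 was at 58.3, 59.4 and 56.0 CPM (reads scaled to library size) in WT and at 23.9, 17.6 and 19.4 CPM in KO, so the labels and the targeted gene matched. Osteoclast markers, 9 genes such as Ctsk and Acp5, summed to 64.0 to 68.5 CPM in SC, 5305 to 5577 in SCR and 1012 to 1339 in SCRP, and all 9 were higher in SCR than SC, lower in SCRP than SCR and lower in KO than WT. Macrophage markers summed to 4743 to 4960, 1684 to 1804 and 2016 to 2161 CPM in the same order, and the 7 of 8 listed in the knockout table were all higher in KO. All 8 were lower in SCR than SC, but in SCRP against SCR 4 were higher, 1 was lower and the rest did not pass. In these bulk samples fewer osteoclasts and less RNA per osteoclast cannot be told apart, and the part that the osteoclast share takes in the results below was not tested. Whether replicate libraries stem from different mice is not stated, so the p-values reflect library-to-library spread, which may be technical.

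Promoter sequence is shown for Lif, Sphk1 and Efnb2, the genes that rose most with RANKL among the members tested and were more than 2-fold lower with pterosin B. SIK kinases are known to hold back CRTC proteins, partners of CREB, which binds CRE sites, and RANKL is known to act through AP-1 and NFATc1. The sequences are from RefSeq on GRCm38.p6, 5′ to 3′ on the gene's strand, limited to bases outside the gene's annotated exons (GENCODE release M21), with capitals on the matches to AP-1 (TGANTCA) in Lif, to the CRE core (TGACG) in Efnb2 and the upstream Sphk1 window, and to the E-box (CACGTG) in the downstream Sphk1 window. Lif (chr11:4257318-4257556, plus strand) has its AP-1 match 228 bases before the annotated start. Sphk1 has 5 annotated starts, and the windows shown (chr11:116531587-116531743 and chr11:116532194-116532443, plus strand, both between annotated exons of the gene) hold a CRE core 140 bases and an E-box 95 bases before their starts. Efnb2 (chr8:8661243-8661492, minus strand) has its CRE core 110 bases before the start.
Lif: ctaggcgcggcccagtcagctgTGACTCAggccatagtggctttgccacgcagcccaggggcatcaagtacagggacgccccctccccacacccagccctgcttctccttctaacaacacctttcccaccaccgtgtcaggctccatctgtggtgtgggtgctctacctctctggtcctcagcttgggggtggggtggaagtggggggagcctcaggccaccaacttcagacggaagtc
Sphk1 upstream: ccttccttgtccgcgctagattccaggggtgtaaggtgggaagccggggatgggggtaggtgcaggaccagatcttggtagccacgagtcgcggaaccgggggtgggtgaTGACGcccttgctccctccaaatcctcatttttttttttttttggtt
Sphk1 downstream: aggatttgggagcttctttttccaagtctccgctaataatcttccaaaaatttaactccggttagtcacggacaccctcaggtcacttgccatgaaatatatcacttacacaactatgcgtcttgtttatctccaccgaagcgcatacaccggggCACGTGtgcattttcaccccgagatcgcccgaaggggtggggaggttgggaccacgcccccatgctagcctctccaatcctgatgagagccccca
Efnb2: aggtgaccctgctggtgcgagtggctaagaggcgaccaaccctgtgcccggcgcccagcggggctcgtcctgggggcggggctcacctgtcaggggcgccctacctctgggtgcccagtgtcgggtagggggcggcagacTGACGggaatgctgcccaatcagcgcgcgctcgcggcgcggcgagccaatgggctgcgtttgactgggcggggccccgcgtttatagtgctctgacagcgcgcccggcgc

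Over both strands of the 250 bases before each start, 7 members had 14 RefSeq windows, several of them overlapping. A CRE core was in a window of 3 members (Sphk1, Efnb2 and Wnt10b), AP-1 in 3 (Lif, Sphk1 and Sema4d), the NFAT core GGAAA in 4 (Lif, Sphk1, Spp1 and Sema4d), the E-box in 1 (Sphk1) and an NF-kB motif in 1 (Wnt10b). The shares of all 32851 windows with such a match were 17.8%, 6.75%, 55.6%, 6.02% and 3.90%. A match is a description of letters and not a binding site, and genes with several starts have more chances of one. A further AP-1 match, 50 bases before the annotated start that belongs to the upstream Sphk1 window, lies in an annotated exon and is not printed.

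SCR against SC asks how RANKL changed the factors in these precursors. Since the culture time of SC is not given, RANKL and time in culture cannot be told apart here, and "with RANKL" below means SCR against SC. By edgeR's quasi-likelihood test with Benjamini-Hochberg adjustment over all genes tested, 7 of the 10 members could be tested, of which 6 (Lif, Sphk1, Efnb2, Pdgfb, Sema4d and Bmp2) were higher in SCR and 1 (Spp1) was lower. Of all 13650 genes tested, 59.1% passed at an adjusted p under 0.05, 30.7% higher and 28.4% lower, so that a member passes is the rule in this comparison and the size of its change tells more. The median log2 fold change of the 7 was 2.07, against 0.02 over all genes. Lif, Sphk1 and Bmp2 had too few reads in SC to enter the test through that group. A gene so admitted can hardly be lower than SC, so counts and medians of the members against SC lean towards rises. Cthrc1, Slit3 and Wnt10b had too few reads to test.

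**Figure D1:**
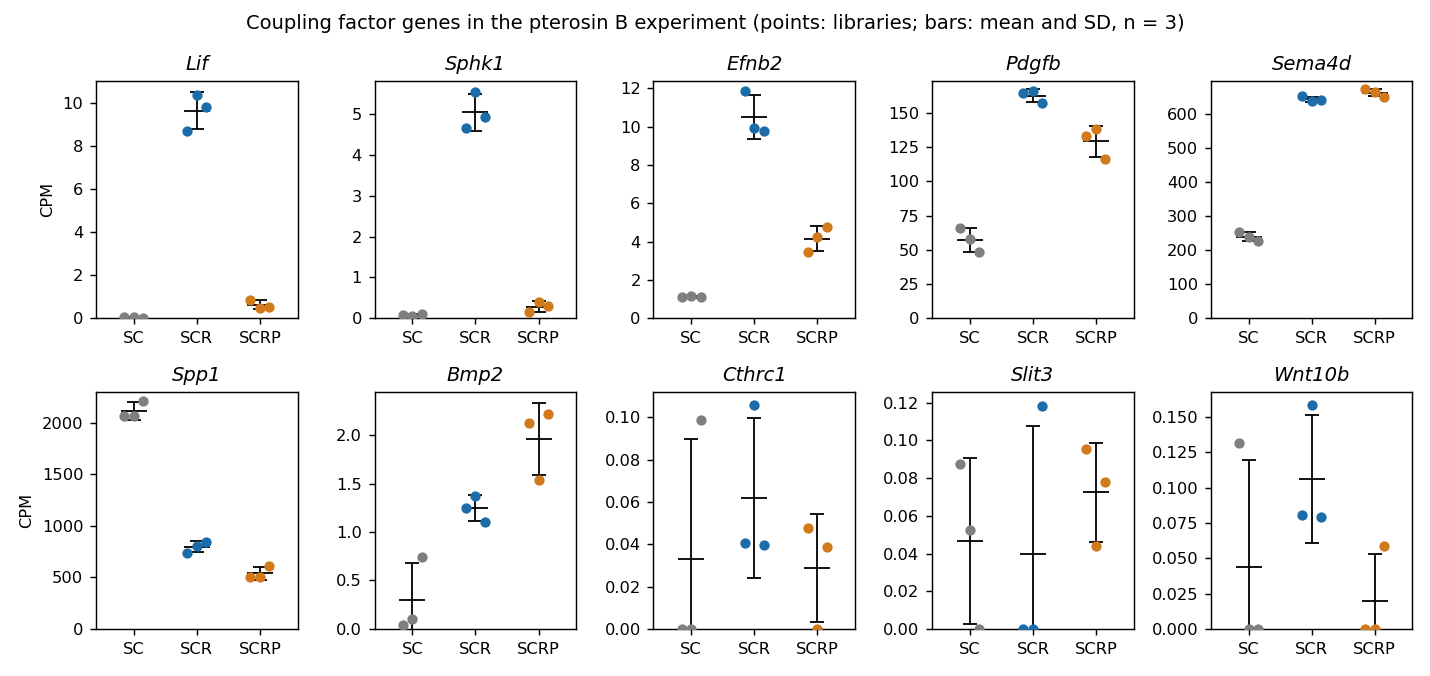
Level of each coupling factor gene in CPM, on an axis of its own from 0, in the 3 libraries of SC (vehicle), SCR (RANKL) and SCRP (RANKL with pterosin B). Points are libraries, bars the mean and SD (n = 3). Lif and Sphk1 are near 0 in SC and low in SCRP, the SCR and SCRP libraries of Sema4d overlap, and Spp1 is highest in SC.

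Lif, a cytokine of the interleukin-6 family that acts on osteoblast precursors through LIFR and gp130 (chromosome 11, 4257557 to 4272514, GRCm38), went from almost nothing to a clear level. Its SC libraries had 2, 2 and 0 reads (0.0438, 0.0524 and 0 CPM) and its SCR libraries 430, 393 and 497 reads (8.69, 10.4 and 9.82 CPM). All SCR libraries lay far above all SC libraries. The log2 fold change was 8.10 ± 0.42 (SE, adjusted p = 5.29e-11), 56th from the top of 13650 genes. With 4 SC reads in all, the ratio of CPM was 297 with a 95% counting interval of 116 to 1093. Counting intervals, here and below, leave out the spread between libraries and may be too narrow if a fragment counts as a read pair.

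Sphk1, the inducible kinase that makes sphingosine 1-phosphate (chromosome 11, 116530925 to 116536674), behaved alike. The SC libraries had 4, 2 and 4 reads (0.0876, 0.0524 and 0.0987 CPM) and the SCR libraries 231, 210 and 250 reads (4.67, 5.55 and 4.94 CPM). The groups did not overlap. The log2 fold change was 5.93 ± 0.44 (adjusted p = 4.34e-09), and the ratio of CPM was 62.3 with a counting interval of 33.6 to 130.

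Efnb2, the ephrin whose contact with EphB4 on osteoblasts signals in both cells (chromosome 8, 8617434 to 8661242), started from a low but measurable level. It was at 1.10, 1.15 and 1.09 CPM in SC and at 11.8, 9.93 and 9.80 CPM in SCR. Every SCR library was above every SC library, with a log2 fold change of 3.24 ± 0.18 (adjusted p = 1.59e-10).

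Pdgfb and Sema4d were already expressed without RANKL. Pdgfb, whose product PDGF-BB recruits mesenchymal progenitors and vessels (chromosome 15, 79995874 to 80014977), was at 65.8, 57.8 and 48.1 CPM in SC and at 164, 166 and 157 CPM in SCR. Sema4d, which restrains osteoblasts through plexin-B1 (chromosome 13, 51685529 to 51793747), was at 254, 238 and 228 CPM in SC and at 653, 638 and 641 CPM in SCR. Neither gene's groups overlapped, and the rises were of like size. The log2 fold changes were 1.5 ± 0.09 for Pdgfb (adjusted p = 2.18e-10) and 1.42 ± 0.04 for Sema4d (adjusted p = 9.10e-14). Of the Pdgfb reads, 75.9% in SC and 76.5% in SCR mapped uniquely, against nearly all for the other tested members.

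Bmp2, the bone morphogenetic protein (chromosome 2, 133552159 to 133562885), was low throughout and uneven in SC. It had 2, 4 and 30 reads in SC (0.0438, 0.105 and 0.740 CPM) and 62, 52 and 56 reads in SCR (1.25, 1.37 and 1.11 CPM). SC replicate 3 stood well above the other SC libraries, though below every SCR library. The log2 fold change was 2.07 ± 0.64 (adjusted p = 0.0104), and without SC replicate 3 it was 4.05 (adjusted p = 1.53e-05), so that library sets the size of the rise.

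Spp1, which encodes osteopontin, a phosphorylated matrix protein bound by integrin αvβ3 and CD44 (chromosome 5, 104435118 to 104441050), went the other way. It was at 2060, 2064 and 2212 CPM in SC and at 741, 803 and 846 CPM in SCR. The lowest SC library lay far above the highest SCR library. The log2 fold change was -1.41 ± 0.07 (adjusted p = 1.38e-11). Even so, Spp1 stayed the most abundant of the members in every group.

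Per kilobase of exon (RPKM), the order in SCR was Spp1 (448 ± 30.6, SD, n = 3), Sema4d (77.7 ± 0.938), Pdgfb (36.2 ± 0.978), Lif (2.05 ± 0.183), Efnb2 (1.42 ± 0.153), Sphk1 (0.980 ± 0.0861) and Bmp2 (0.324 ± 0.0341). No neighbours among these 7 overlapped between libraries in SCR. In SC the order after Pdgfb was Efnb2 (0.141), Bmp2 (0.0726) and then 5 genes at 0.0180 RPKM or less. The wide range of Bmp2 there (0.0106 to 0.182) covered that of Efnb2, and the 5 lowest overlapped among themselves. In SCRP, Efnb2 (0.474 to 0.648) and Bmp2 (0.403 to 0.584) overlapped and both stood above Lif (0.104 to 0.184), which stood above them in SCR. In WT the order after Pdgfb was Lif (4.50), Efnb2 (2.41), Cthrc1 (2.04), Sphk1 (1.42) and Bmp2 (0.127), the same as in KO, and only Efnb2 and Cthrc1 overlapped in either group.

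SCRP against SCR asks how pterosin B changed the factors in the presence of RANKL. Of the same 7 genes, 5 (Lif, Sphk1, Efnb2, Pdgfb and Spp1) were lower with pterosin B, none was higher, and Sema4d and Bmp2 did not pass the test. Over all 13650 genes, 37.8% passed, 17.9% higher and 19.9% lower. The median log2 fold change was -0.57 over the 7 genes and 0.00 over all genes. Sphk1 had enough reads to enter the test only in SCR, so the count and the median lean towards falls. This comparison shares the SCR libraries with the last, so its values are set beside those above and not counted as further evidence for them.

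Lif and Sphk1 were low again with pterosin B. Lif had 36, 22 and 26 reads in SCRP (0.859, 0.484 and 0.506 CPM), a log2 fold change of -3.97 ± 0.28 (adjusted p = 1.48e-08), 15.7-fold lower than SCR. Sphk1 had 6, 18 and 16 reads (0.143, 0.396 and 0.311 CPM), a log2 fold change of -4.13 ± 0.37 (adjusted p = 2.04e-07), 17.5-fold lower. Both lay below every SCR library and above every SC library. Of the difference in mean CPM between SC and SCR, 6.09% was left in SCRP for Lif and 4.10% for Sphk1.

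The fall was partial for the ephrin and slight for the growth factor. Efnb2 was at 3.48, 4.23 and 4.75 CPM in SCRP, between the SC and the SCR libraries, with a log2 fold change of -1.34 ± 0.16 (adjusted p = 6.52e-06). Pdgfb was at 133, 138 and 116 CPM, with a log2 fold change of -0.33 ± 0.08 (adjusted p = 0.00514). The share of the SC to SCR difference left in SCRP was 32.3% for Efnb2 and 68.3% for Pdgfb. The libraries of SCR and SCRP did not overlap in either gene.

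Sema4d showed no change with pterosin B that passed the test. It was at 673, 666 and 651 CPM in SCRP, and its highest SCR library (653) lay above its lowest SCRP library. The log2 fold change was 0.04 with a 95% interval of -0.05 to 0.13 (adjusted p = 0.465). Bmp2 was at 2.12, 1.54 and 2.22 CPM in SCRP, all above the SCR libraries, with a log2 fold change of 0.66 and a wide interval of -0.54 to 1.86 (adjusted p = 0.398). The Bmp2 interval holds both a fall and a rise, so neither was shown. Its SE was 0.57 in the fit that includes the SC libraries and 0.32 from SCR and SCRP alone (adjusted p = 0.124), while counting error alone gave a ratio of 1.60 with an interval of 1.31 to 1.95.

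Spp1, lower with RANKL, was lower again with pterosin B. It was at 505, 502 and 607 CPM in SCRP, below every SCR library, with a log2 fold change of -0.57 ± 0.07 (adjusted p = 3.65e-06). Against SC it was 3.93-fold lower in SCRP. Pterosin B thus moved Spp1 away from its SC level, whereas Lif, Sphk1, Efnb2 and Pdgfb were nearer to theirs.

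Set directly against SC, SCRP cells differed in all 7 genes tested: 6 were higher and Spp1 was lower, where 56.0% of all genes passed, 28.6% higher and 27.4% lower. The log2 fold changes were 4.13 ± 0.52 for Lif, 1.80 ± 0.50 for Sphk1 (adjusted p = 0.00581), 1.90 ± 0.18 for Efnb2, 1.17 ± 0.09 for Pdgfb, 1.47 ± 0.04 for Sema4d and 2.73 ± 0.64 for Bmp2 (adjusted p = 0.00165, or 4.71 on the log2 scale without SC replicate 3). For Lif the counts behind this are 84 reads in SCRP against 4 in SC, and for Sphk1 40 against 10, a ratio of 3.58 with a counting interval of 1.76 to 8.04.

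**Figure D2:**
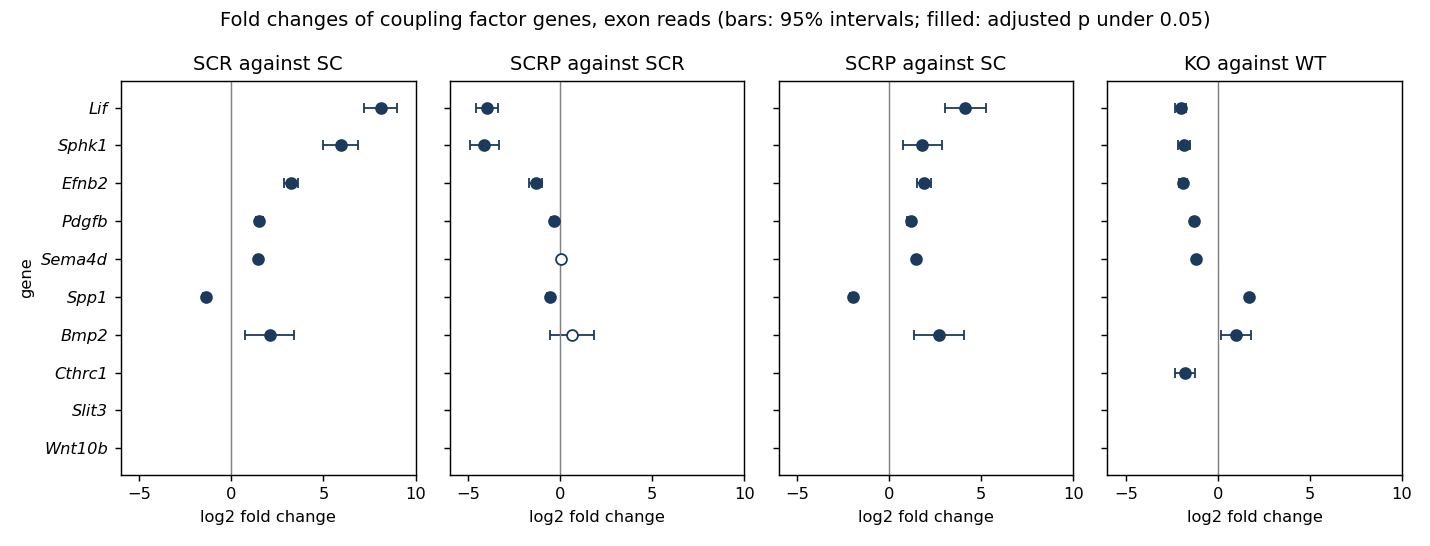
Log2 fold changes of the coupling factor genes from exon reads, by comparison. Points are estimates and bars 95% intervals, filled points passed at an adjusted p under 0.05, and a gene with no point was not tested or not listed. Lif and Sphk1 move furthest in SCR against SC and SCRP against SCR, and Spp1 is below 0 in the first 3 panels and above 0 in KO against WT.

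Intron reads, which come mostly from RNA not yet spliced, gave a second readout of the same libraries for 6 members. In SCR against SC, 5 were higher and Spp1 was lower, where 31.6% of 12665 genes passed, 16.3% higher and 15.3% lower. Lif, Sphk1 and Efnb2 had too few intron reads in SC to enter the test through that group, so this count leans towards rises. Lif had 7, 0 and 0 intron reads in SC and 123, 86 and 136 in SCR, so the log2 fold change was 5.37 ± 0.72 (adjusted p = 1.05e-06), or 9.78 without SC replicate 1, which holds all 7 SC reads. Sphk1 had no intron read in SC and 26, 10 and 12 in SCR (adjusted p = 0.00239), and no fold is given against 0 reads. These are the 2 genes with the fewest SC reads, so the sizes are loosely set while the direction was the same in exons and introns. Sema4d (1.5 ± 0.11) and Pdgfb (1.53 ± 0.11) had nearly the same log2 fold change in introns as in exons. Efnb2 was at 2.65 ± 0.70 (adjusted p = 0.00409), between 2.04 and 3.27 with a replicate left out. Spp1 was at -0.68 ± 0.13 (adjusted p = 0.000107) in introns against -1.41 in exons.

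In SCRP against SCR, introns were lower for 4 of the 6 (Lif, Sphk1, Spp1 and Pdgfb), where 14.1% of genes passed, 7.85% lower. Lif and Sphk1 had enough intron reads to enter the test only in SCR, so this count leans towards falls. Lif introns were at 6, 8 and 0 reads in SCRP, with a log2 fold change of -4.60 ± 0.65 (adjusted p = 9.78e-06), from -5.22 to -4.02 with a replicate left out. Sphk1 introns were at 2, 0 and 0 reads, with a log2 fold change of -4.34 ± 1.24 (adjusted p = 0.0183). That call rests on few reads and was lost without SCR replicate 1 (adjusted p = 0.118), SCRP replicate 2 (0.0959) or SCRP replicate 3 (0.0968), while without SCRP replicate 1 the change was -6.92. Pdgfb introns fell by 0.61 and Spp1 introns by 0.85 on the log2 scale (adjusted p = 0.000157 and 3.13e-05). Sema4d introns showed no change that passed (-0.02, interval -0.22 to 0.19, adjusted p = 0.955), and Efnb2 introns were at -0.79 with an interval of -2.04 to 0.46 (adjusted p = 0.463; -1.47 without SCRP replicate 1).

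**Figure D3:**
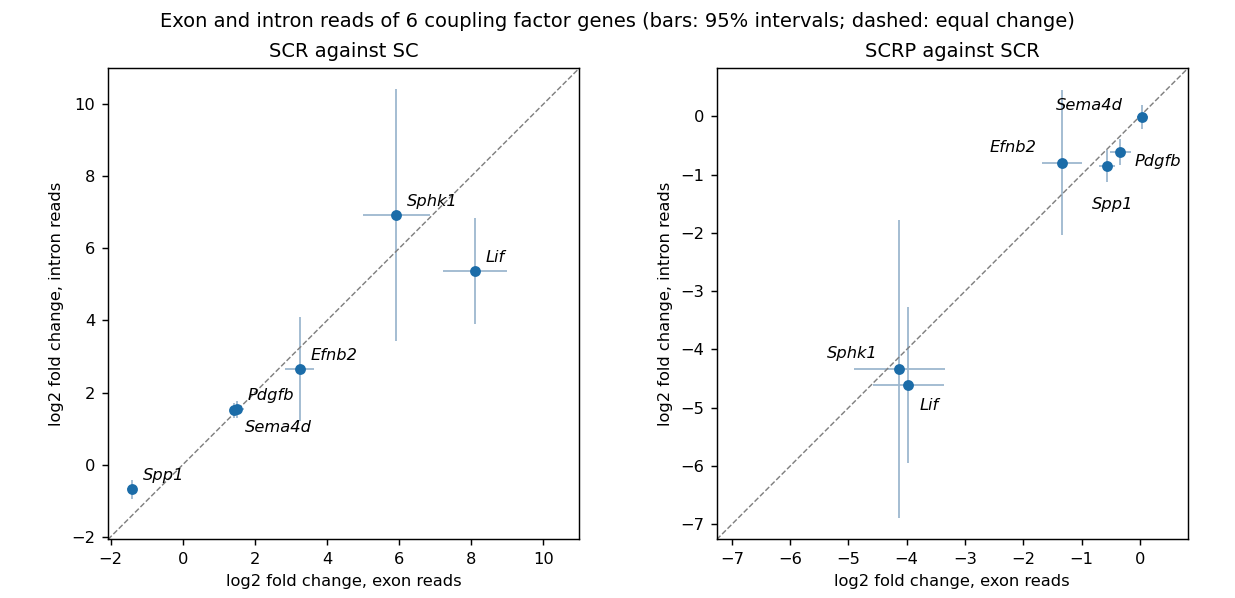
Log2 fold change in intron reads (vertical axis) against exon reads (horizontal axis) for the 6 members tested in both, in SCR against SC and SCRP against SCR. Bars are 95% intervals and the dashed line is equal change. Sema4d and Pdgfb lie on the line in SCR against SC, and Lif and Sphk1 lie at the far end of both panels with wide intron intervals.

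Cthrc1, Slit3 and Wnt10b could not be followed in the pterosin B experiment. Cthrc1, which encodes a secreted protein that osteoclasts on bone are known to release (chromosome 15, 39076932 to 39087121), had 0, 0 and 4 reads in SC, 2, 4 and 2 in SCR, and 2, 0 and 2 in SCRP. Slit3, a guidance ligand of ROBO receptors (chromosome 11, 35121224 to 35708507), had 4, 2 and 0 reads, 0, 0 and 6, and 4, 2 and 4 in the same order, and Wnt10b, a WNT ligand (chromosome 15, 98770712 to 98778150), 6, 0 and 0, 4, 6 and 4, and 0, 0 and 3. A floor of 3 reads is 0.0584 to 0.0792 CPM in these libraries, and most of the values are at or near it. Slit3 had more intron than exon reads, 42 against 6 in SCR and 14 against 6 in SC, too few for the test. In the authors' deposited table, the corrected p-value was 1.0 for Cthrc1 and Slit3 in all 3 comparisons and 0.512 for Wnt10b in SCR against SCRP. For Cthrc1 and Slit3 the counting intervals of all 3 ratios of exon reads held 1, so no difference was detectable from so few reads. Wnt10b had 14 reads in SCR and 3 in SCRP, a ratio of CPM of 4.69 with a counting interval of 1.31 to 25.5, which leaves out the spread between libraries and may be too narrow if a fragment counts as 2 reads.

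KO against WT asks how loss of Sik3 from RANK-expressing cells changed the factors after 2 days of RANKL. Of the 8 members listed, 6 (Lif, Sphk1, Efnb2, Pdgfb, Sema4d and Cthrc1) were lower in KO and 2 (Spp1 and Bmp2) were higher. The table holds only genes with an authors' corrected p-value under 0.05 and a fold of at least 2, 46.3% of them higher and 53.7% lower, and 99.5% of the 1773 with enough reads passed the test here, 48.3% higher and 51.3% lower. Being listed is therefore the authors' result on these libraries, and the adjusted p-values below are not independent evidence of it. The median log2 fold change of the 8 was -1.56, for which a table without genes under 2-fold gives no baseline.

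**Figure D4:**
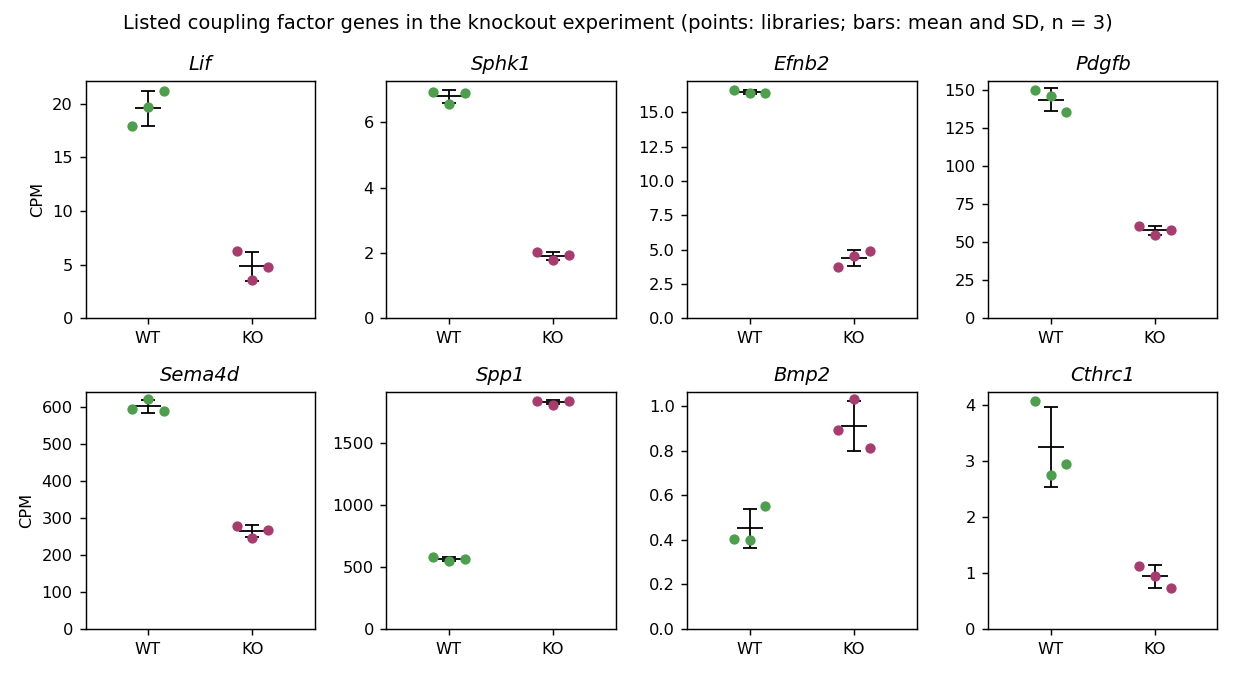
Level in CPM, each gene on an axis of its own from 0, of the 8 coupling factor genes listed in the knockout table, in the 3 libraries of WT and of KO. Points are libraries, bars the mean and SD (n = 3). The KO libraries are below all WT libraries for 6 genes and above them for Spp1 and Bmp2.

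The 3 genes that pterosin B had lowered most were also lower in KO, Lif 4.08-fold, Sphk1 3.55-fold and Efnb2 3.73-fold, where with pterosin B they were 15.7-fold, 17.5-fold and 2.53-fold lower. Lif was at 17.9, 19.7 and 21.2 CPM in WT and at 6.25, 3.53 and 4.78 CPM in KO (log2 fold change -2.03 ± 0.14, adjusted p = 5.72e-12). Sphk1 was at 6.93, 6.55 and 6.89 CPM in WT and at 2.02, 1.78 and 1.93 CPM in KO (-1.83 ± 0.16, adjusted p = 3.37e-10). Efnb2 was at 16.6, 16.4 and 16.4 CPM in WT and at 3.76, 4.52 and 4.90 CPM in KO (-1.90 ± 0.11, adjusted p = 6.00e-13). The WT and KO libraries were well apart in all 3. The experiments differ in RANKL time, normalization and totals of counted reads, so these folds are set side by side and their difference was not tested.

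Pdgfb, slightly lower with pterosin B, and Sema4d, which did not pass there, were both more than 2-fold lower in KO. Pdgfb was at 149, 146 and 135 CPM in WT and at 60.7, 54.5 and 58.0 CPM in KO (-1.31 ± 0.05, adjusted p = 2.66e-16). Sema4d was at 595, 623 and 589 CPM in WT and at 278, 246 and 268 CPM in KO (-1.19 ± 0.04, adjusted p = 5.80e-17). Side by side, mean KO levels were 57.7 ± 3.07 and 264 ± 15.9 CPM and mean SC levels 57.3 ± 8.85 and 240 ± 13.3 CPM (SD, n = 3). Mean KO and SC levels lay further apart for Lif (4.85 and 0.0321 CPM), Sphk1 (1.91 and 0.0796) and Efnb2 (4.39 and 1.11). They were 0.938 and 0.0329 for Cthrc1, 0.911 and 0.296 for Bmp2, and 1833 and 2112 for Spp1. The CPM totals are of unlike kinds, TMM-scaled exon reads in SC and totals implied by RPKM in KO, which affects these pairs. In the authors' RPKM, mean KO and SC levels were 13.9 and 11.9 for Pdgfb, 34.4 and 27.1 for Sema4d, and 1112 and 1112 for Spp1. The tables were normalized separately, so KO was not tested against SC.

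Spp1 was the member with the plainest split between the experiments. It was at 579, 549 and 565 CPM in WT and at 1844, 1811 and 1843 CPM in KO, a log2 fold change of 1.70 ± 0.03 (adjusted p = 3.87e-21), while pterosin B had lowered it. Bmp2 had 9, 9 and 14 reads in WT and 19, 26 and 21 in KO, with a log2 fold change of 1.0 ± 0.39 (adjusted p = 0.0191). It had enough reads to enter the test only in KO, so its call leans towards a rise. The Bmp2 call was lost with DESeq2 (adjusted p = 0.0542) and without WT replicate 1 (0.0616), WT replicate 2 (0.0578) or KO replicate 2 (0.0589).

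Cthrc1 was measurable in the knockout experiment. WT libraries had 91, 62 and 75 reads (4.07, 2.75 and 2.95 CPM) and KO libraries 24, 24 and 19 (1.13, 0.951 and 0.733 CPM). The groups did not overlap, and the log2 fold change was -1.80 ± 0.27 (adjusted p = 1.88e-06). Fibroblast and osteoblast cells are also known to make CTHRC1. Of the 12 stromal and osteoblast markers, the table lists Col3a1 and Dcn, both lower in KO, Col3a1 from 1.07 ± 0.442 to 0.362 ± 0.0547 CPM and Dcn from 0.510 ± 0.285 to 0.0859 ± 0.0513 CPM (SD, n = 3). The other markers are not listed, so none of them met both of the authors' cuts. Dcn had too few reads there to be tested, and its KO mean lies under the floor of 3 reads (0.116 to 0.141 CPM in KO). The part of stromal cells in the Cthrc1 result was not tested. In the pterosin B experiment the 12 summed to 12.2 to 17.3 CPM in SC, 14.3 to 16.1 in SCR and 12.4 to 14.5 in SCRP, with Bglap at 0 reads in all 9 libraries. The sums hide single genes that moved. Of 7 tested, 2 were higher and 0 lower in SCR than SC (30.7% and 28.4% over all genes). In SCRP against SCR, 1 was higher and 2 lower (17.9% and 19.9% over all genes). Dcn, counted in both, had 0, 66 and 6 reads in SC, SCR and SCRP. It had enough reads to enter the test only in SCR, so its calls lean towards a rise with RANKL and a fall with pterosin B.

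The lists of related genes below are read against the shares over all genes, 30.7% higher and 28.4% lower in SCR than SC and 17.9% higher and 19.9% lower in SCRP than SCR, with medians of 0.02 and 0.00. The lists are short, so their counts are descriptions and the named genes carry the results.

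Around Sphk1, the genes that make, export and degrade sphingosine 1-phosphate did not all move with it. Of 15 genes, all tested, 4 were higher and 6 lower in SCR than SC, and 5 were higher and 5 lower in SCRP than SCR, with medians of -0.11 and 0.00 against 0.02 and 0.00 over all genes. Spns2, an exporter of the lipid, was at 0, 0 and 0.444 CPM in SC, 38.2, 36.7 and 38.7 in SCR, and 8.01, 7.28 and 8.62 in SCRP. Its log2 fold changes were 8.0 ± 0.36 with RANKL (adjusted p = 7.31e-12) and -2.25 ± 0.21 with pterosin B (adjusted p = 3.20e-07), and in the knockout table it went from 83.3 ± 3.44 to 20.9 ± 0.196 CPM. Plpp1, a phosphatase that removes phosphate from such lipids, rose from 2.52 to 15.1 CPM with RANKL and was at 2.76 CPM with pterosin B (log2 fold changes 2.59 and -2.46, adjusted p = 9.82e-10 and 8.35e-09). Sphk2, the other kinase, showed no change that passed with RANKL (81.6 and 80.9 CPM, adjusted p = 0.882) and was at 55.2 CPM with pterosin B (-0.55 ± 0.06, adjusted p = 4.51e-06). Plpp3 was 2.11-fold higher with pterosin B and Asah2, a ceramidase, 2.32-fold lower with RANKL. The transporters Abcc1 and Abca1, also on this list, were both higher with pterosin B, where Sphk1 and Spns2 were lower. Abcc1 was at 472, 718 and 1061 mean CPM in SC, SCR and SCRP, and Abca1 at 107, 65.9 and 112.

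**Figure D5:**
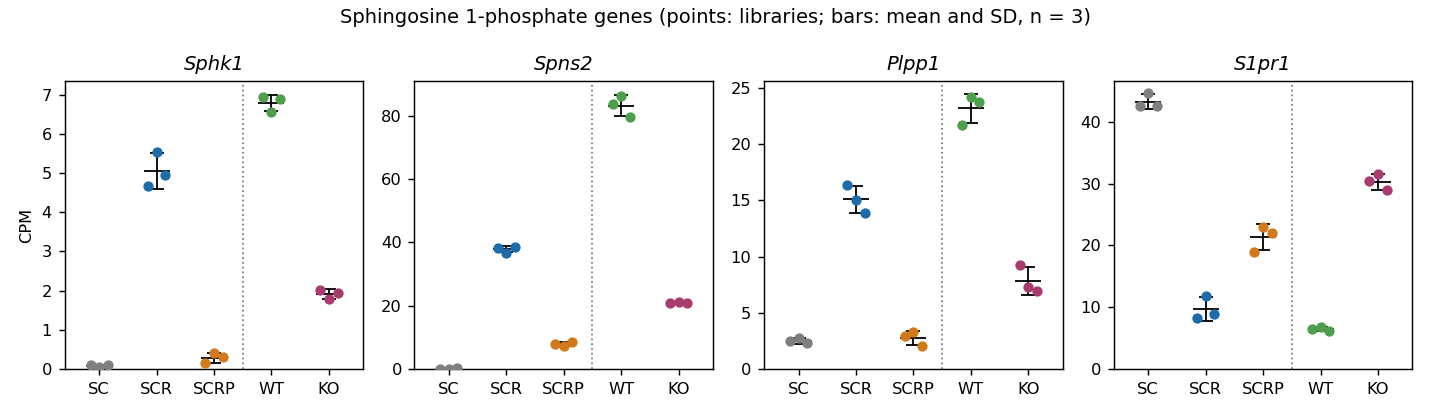
Level in CPM, each gene on an axis of its own from 0, of Sphk1 (synthesis), Spns2 (export), Plpp1 (dephosphorylation) and S1pr1 (receptor) in all 5 groups. Points are libraries, bars the mean and SD (n = 3), and the dotted line parts experiments normalized separately. The first 3 genes are high in SCR and WT, and S1pr1 is low there.

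Receptors of the factors were also read out, here in the osteoclast lineage itself. Of 34, 24 were tested, 6 were higher and 12 lower in SCR than SC (median -0.38, against 0.02 over all genes), and 10 were higher and 4 lower in SCRP than SCR (median 0.23, against 0.00). S1pr1, the receptor by which osteoclast precursors are known to sense sphingosine 1-phosphate, was at 42.5, 44.7 and 42.5 CPM in SC, 8.18, 11.9 and 8.89 in SCR, and 18.9, 23 and 22 in SCRP. It rose 2.22-fold with pterosin B (log2 fold change 1.15 ± 0.12, adjusted p = 8.02e-07), and in the knockout table it stood at 6.46 ± 0.298 CPM in WT and 30.3 ± 1.26 in KO. Lifr, the receptor of LIF, was at 9.25 CPM in SC, 2.42 in SCR and 4.64 in SCRP, so it was low where Lif was high (log2 fold change with pterosin B 0.94 ± 0.16, adjusted p = 0.000243). Itgb3, the integrin chain by which osteoclasts hold osteopontin, was 12.5-fold higher with RANKL and 5.95-fold lower with pterosin B. The WNT receptors Fzd1 and Fzd7 were 4.81-fold and 4.52-fold lower with RANKL. Ephb2, a receptor of ephrin-B ligands, was 2.78-fold higher with pterosin B (adjusted p = 0.0233). Bmpr1b had no read in SC and 26 in SCR. Plxnb1, the receptor by which semaphorin 4D acts on osteoblasts, had 16 reads in SC and none in SCR, and Ephb4 had 12 and 16.

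Among close relatives of the members, the counts with RANKL were near the shares over all genes. Of 31, 17 were tested, 5 were higher and 4 lower in SCR than SC (median 0.35, against 0.02 over all genes), and 1 was higher and 5 lower in SCRP than SCR (median -0.37, against 0.00). Sema7a, another membrane-linked semaphorin, was at 0.355 ± 0.0772 CPM in SC, 28.7 ± 2.10 in SCR and 7.34 ± 0.927 in SCRP (SD, n = 3), log2 fold changes of 6.33 ± 0.17 and -1.97 ± 0.11 (adjusted p = 1.64e-14 and 1.12e-09), and it fell by 2.12 on the log2 scale in KO. It was thus lower with pterosin B, where Sema4d did not pass the test; the difference between these genes was not tested. Slit1, a relative of Slit3, and Sema4c were 16.2-fold and 6.98-fold lower with RANKL, and Efna2 was 5.86-fold higher. Efnb1 and Pdgfa, the nearest relatives of Efnb2 and Pdgfb, were 2.10-fold and 2.22-fold lower with pterosin B. Sema4g was 6.70-fold lower with pterosin B on 44 and 6 reads (adjusted p = 0.0474). It had enough reads to enter the test only in SCR, so its call leans towards a fall.

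Of 10 other factors credited with coupling, 7 were tested, too few to set apart from the shares over all genes. Of these, 3 were higher and 3 lower in SCR than SC (median 0.50, against 0.02 over all genes), and 2 were higher and 1 lower in SCRP than SCR (median 0.06, against 0.00). Complement C3 rose 6.05-fold with RANKL and was 1.5-fold lower with pterosin B. Cxcl16, a chemokine, was 2.16-fold higher with pterosin B and 2.28-fold higher in KO. Igf1 and Hgf, growth factors of bone and other tissues, were 6.21-fold and 3.77-fold lower with RANKL. Igf1 was then 1.37-fold higher with pterosin B. Vegfa was 3.24-fold higher with RANKL (log2 fold change 1.70 ± 0.16, adjusted p = 9.97e-08). Neither Vegfa nor Hgf passed the test with pterosin B (adjusted p = 0.799 and 0.123). In KO, Vegfa was 2.26-fold lower and Hgf 2.62-fold higher.

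Among genes that shed, cut or help secrete the factors, 10 of 11 were tested, 3 were higher and 5 lower in SCR than SC, and 4 were higher and 3 lower in SCRP than SCR, with medians of -0.23 and 0.17. The members that rose were the proteases Mmp9 and Mmp14 and the phosphatase Acp5, which removes phosphate from osteopontin. Mmp14 was 21.5-fold higher with RANKL and 4.69-fold lower with pterosin B, and Acp5 429-fold higher and 7.38-fold lower. Mmp9 was 764-fold higher and 2.91-fold lower. Acp5 and Mmp9 are also among the osteoclast markers above. Fam20c, the kinase that phosphorylates osteopontin, was 1.65-fold higher with pterosin B and 2.86-fold higher in KO (82.0 ± 4.53 to 234 ± 8.40 CPM, SD, n = 3). Spp1 too was higher in KO, while it was lower with pterosin B. Thbd, a cofactor of thrombin, which is known to cut osteopontin, was 3.35-fold lower with RANKL.

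The genes most alike in pattern to each tested member, by Pearson r of log2 CPM over the 9 libraries of the pterosin B experiment among 11412 genes are given as a description. The points share their libraries and their groups, so no p-value is given. Nearest to Lif were Tm4sf19 (r = 0.997), at 0.442, 39 and 3.87 mean CPM in SC, SCR and SCRP, and Rai14 (0.997). Nearest to Sema4d were Rnf19b (0.999), at 65.2, 297 and 313 CPM, and Nfkb2 (0.999), at 49.2, 250 and 257 CPM. Nearest to Spp1 were Laptm5 (0.997) and Tlr7 (0.996). Sphk1 came with Etfdh (0.992) and Cog3 (0.992), Efnb2 with Phlpp1 (0.997) and Cep70 (0.996), Pdgfb with Cavin3 (0.995) and Rpl8 (0.995), and Bmp2 with Adgre4 (0.979) and Hmmr (0.974). The measure ignores size: Etfdh went only from 38.7 to 55.2 CPM with RANKL, where Sphk1 rose 60.8-fold.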

How the data were processed

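Per the labels' protocols, rRNA-depleted total RNA of 15 cultures went into directional libraries. Build GRCm38 (mm10) is named per the submitters' processing notes. Aligner, counting program and counted strand: not given in the sources used here. Per the file headers, the deposited counts give exon reads for each gene as whole numbers, and separate columns give unique, junction and intron reads. The RPKM values are the authors' own, per the file headers, and scale reads for exon length and library total. A test named EDGE gave the deposited p-values, raw and corrected, and the deposited score, a signed fold, per the file headers. Among deposited counts of 1 to 39, 75.3% to 79.0% were even in the pterosin B experiment and 45.5% to 50.7% in the knockout experiment. A fragment may thus count as a read pair in the former, and counting intervals there may be too narrow and the floor too low. A further 165 columns of per-sample values were not used.

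Counts were tested with edgeR 4.0.16 (quasi-likelihood, filterByExpr, TMM) in R 4.3.3, two-sided, with Benjamini-Hochberg adjustment over all genes tested. The 9 libraries of the pterosin B experiment shared a fit (13650 genes from exon reads, 12665 from intron reads). The knockout table holds only genes the authors selected, so its design was changed: library totals were recovered from counts, exon lengths and RPKM, no TMM factor was used, and 1773 of 2275 genes were tested. CPM uses these scaled totals. Ratios carry exact 95% counting intervals, and floors are 3 reads per library, both for counting error only. Alternatives were DESeq2 1.42.0, no filter, unique reads, the 2 compared groups alone, TMM in the knockout table, a replicate block and leaving out each replicate. Scripts were run on simulated counts in which far fewer genes changed than in these data. The simulated knockout libraries took sums over the listed genes as totals. The simulation thus checks the code and not the settings of these data. Motifs were searched in RefSeq promoter windows, and positions checked against GENCODE M21, where all 10 members matched. An antisense gene (Gm29292) shares 192 exon bases with Sphk1 and a further gene (Gm42793) shares 309 with Spp1, each with 0 reads. Other tools were Python 3.11.15, pandas 2.3.3, numpy 2.4.6, scipy 1.17.1 and matplotlib 3.10.9.

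The members and all lists were chosen with earlier results of these data known. Lists cover other coupling factors, family relatives, receptors, sphingosine 1-phosphate handling, shedding and secretion, inhibitors, and markers of osteoclast, macrophage, stromal and osteoblast, endothelial, megakaryocyte and neutrophil cells. Named are the members, up to 4 genes of a list with the largest change among those that passed in SCR against SC and in SCRP against SCR, and the 2 genes most alike to each member. Further genes were named after their values were seen (Sphk2, Abcc1, Abca1, Grem1, Plxnb1, Ephb4, Col3a1, Dcn, Bglap, Vwf, Emcn, Pf4, Gp9, Nog, Chrd, Sost and Sik3). Marker lists are given as sums, some with counts of genes that passed.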

Additional observations from a re-analysis of the deposited data

How the results depend on the processing

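Over 418 values of members under an alternative, 408 kept their direction and their side of the threshold, 7 lost the call and 3 changed sign. The 7 are the Sphk1 intron change with pterosin B (log2 fold change -3.90 to -3.81 in the 3 fits without a replicate that lost the call, -6.92 to -3.81 over all 6) and the Bmp2 change in KO (1.01 with DESeq2, 0.90 to 0.93 in the 3 fits without a replicate that lost it, 0.90 to 1.18 over all 6). The 3 sign changes are all of the Sema4d intron change with pterosin B, which did not pass and ran from -0.125 to 0.0606 with a replicate left out. The cause was not tested in any of them. Sphk1 in SCRP against SC had no value from these groups alone, since it was then below the filter. Numbers of genes that passed stayed within 1.5 times of the main fit in every comparison and alternative, and from 4396 to 4767 genes passed in SCRP against SCR with a replicate left out, against 5156. Scaling choices moved the median of all genes by less than 0.1 on the log2 scale.

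Labels share replicate numbers across groups, and whether the numbers pair libraries is not stated. Deviations of same-numbered libraries correlated weakly (r from -0.05 to 0.10), and those of other pairs ran from -0.08 to 0.05. Between SCR and SCRP the same-numbered r were 0.05 to 0.10 and the others -0.06 to 0.01. Such weak correlations over 3 libraries per group cannot decide whether libraries were paired. With a replicate block, 8182, 5394 and 7773 genes passed in SCR against SC, SCRP against SCR and SCRP against SC, 4063 and 1862 from introns in the first 2 of these, and 1757 in KO against WT. The block changed no call of a member.

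Low counts limit Cthrc1, Slit3 and Wnt10b in the pterosin B experiment, where 14 exon reads over 3 libraries is the most any of them had in a group. They also limit the size of the RANKL response of Lif and Sphk1, which rests on 4 and 10 reads in SC. The knockout libraries were less deep, yet Cthrc1 averaged 3.26 CPM in WT and 0.0618 CPM in SCR, from tables normalized separately. That difference was not tested.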

Other observations

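Of 12 genes known to restrain the factors or their signalling, 9 had any read in these cells and 3 (Grem1, Bambi and Socs3) had enough to be tested, with 1 higher and 1 lower in SCR than SC and 1 higher in SCRP than SCR. Bambi, a decoy receptor of BMP signalling, was 2.01-fold lower with RANKL (12.1 and 6.03 CPM, log2 fold change -1.01, adjusted p = 1.86e-06 by edgeR). Socs3, which restrains signalling of the LIF receptor inside the cell, was at 4.09 CPM in SC, 8.51 in SCR and 17.3 in SCRP (log2 fold changes 1.06 and 1.02, adjusted p = 2.03e-06 and 4.02e-06). Noggin (Nog), Chrd and Sost had no read in the 9 libraries of the pterosin B experiment.

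Markers of further cells are given as summed CPM over the libraries of SC, SCR and SCRP in turn. Neutrophil markers ran from 98.6 to 107, 51.6 to 60.5 and 10.4 to 11.8. Endothelial markers, mostly Vwf, ran from 27.4 to 36.3, 27.8 to 36.3 and 3.79 to 4.75, with Emcn at 0 reads throughout. Megakaryocyte markers, mostly Pf4, ran from 246 to 260, 30.3 to 48.0 and 31.6 to 38.1, with Gp9 at 0 reads throughout. PDGF-B is also known from megakaryocytes and endothelial cells, and the part of either in the Pdgfb levels was not tested.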
